A study of Homo sapiens with 9 samples.

Results

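GFPT1, GNPNAT1, PGM3, UAP1, NAGK and OGT, 6 of the 25159 genes listed, are the genes whose products make, salvage and use UDP-GlcNAc, the nucleotide sugar at the end of the hexosamine pathway. They were chosen by pathway membership with their read counts in all 3 siRNA groups already known, and above all that of GNPNAT1. Their changes are therefore given as a description with no test. Where a call of the fit over all genes is counted or named for these 6, nothing is read from it. WiDr cells, a p53-mutant human colon adenocarcinoma line cultured in DMEM with 10% FBS, were transfected for 24 h with siRNA at 100 nM. The siRNA was either a control siRNA or 1 of 2 named LIMp27 siRNA-1 and LIMp27 siRNA-2, which are directed at the lncRNA LIMp27 (LINC01356), with 3 libraries of each and the control libraries shared by both comparisons. The study names these as repeats of 1 cell line, so the errors below describe the spread between transfections of WiDr cells and nothing wider.

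In the hexosamine pathway, GFPT1 turns fructose-6-phosphate and glutamine into glucosamine-6-phosphate, the committed step. GNPNAT1 then acetylates this product with acetyl-CoA, PGM3 moves the phosphate, and UAP1 joins the sugar to UTP, which gives UDP-GlcNAc. NAGK feeds GlcNAc recovered from broken-down glycans back into the pathway ahead of PGM3. OGT uses UDP-GlcNAc to place single GlcNAc residues on nuclear and cytosolic proteins, while the Golgi and the endoplasmic reticulum use the same donor for N-glycans, mucin-type glycans and GPI anchors.

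Reads counted to genes numbered 14361629 to 21524623 per library. The epithelial markers EPCAM (569 to 702 FPKM) and KRT8 (3972 to 6872 FPKM) and the intestinal markers KRT20 (141 to 350 FPKM) and VIL1 (45.2 to 87.8 FPKM) were present in every library, whereas CDX2, a colon transcription factor, was low (0.30 to 0.92 FPKM). PTPRC and PECAM1, of blood cells and endothelium, reached at most 3 reads and 1 read in the libraries that list them, and the fibroblast collagen COL1A1 reached 26 reads. LINC01356 itself had 2 reads in all over the control libraries, 0 over the LIMp27 siRNA-1 libraries and 3 over the LIMp27 siRNA-2 libraries, at or under a floor of 3 reads, so these libraries do not check its knockdown. The paper reports that it checked LIMp27 knockdown in WiDr cells for RNA-seq by qPCR. In each comparison of a LIMp27 siRNA with control siRNA about as many genes were higher as lower (3802 and 4066 of 14347 with LIMp27 siRNA-1, and 3939 and 4120 of 14204 with LIMp27 siRNA-2, edgeR at an adjusted p of 0.05). Scaled by library totals alone, the same splits were 4974 and 3017, and 4976 and 3362.

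The stretch around the start site is shown for GNPNAT1, UAP1 and GFPT1, the genes that were lower with both LIMp27 siRNAs and lower still with LIMp27 siRNA-2. Each is the RefSeq promoter window (GRCh38.p14, 250 bases before to 50 after the annotated start) nearest to the gene's 5′ end, written on the gene's own strand, with the GC box GGGCGG and its reverse complement in capitals. GNPNAT1 is on the minus strand at chr14:52791558-52791857, UAP1 on the plus strand at chr1:162561281-162561580 and GFPT1 on the minus strand at chr2:69387178-69387477.
GNPNAT1: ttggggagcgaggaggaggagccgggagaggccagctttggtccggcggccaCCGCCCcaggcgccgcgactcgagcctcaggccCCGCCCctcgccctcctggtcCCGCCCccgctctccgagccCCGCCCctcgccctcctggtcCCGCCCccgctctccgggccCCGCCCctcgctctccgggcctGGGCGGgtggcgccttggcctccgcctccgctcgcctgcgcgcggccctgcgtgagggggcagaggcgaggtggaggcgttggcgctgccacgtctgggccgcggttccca
UAP1: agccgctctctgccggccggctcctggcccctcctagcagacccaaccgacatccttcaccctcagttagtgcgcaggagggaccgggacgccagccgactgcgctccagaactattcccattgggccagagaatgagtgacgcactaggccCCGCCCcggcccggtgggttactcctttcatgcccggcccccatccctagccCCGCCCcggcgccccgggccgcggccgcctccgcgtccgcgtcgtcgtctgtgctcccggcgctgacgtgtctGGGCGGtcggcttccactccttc
GFPT1: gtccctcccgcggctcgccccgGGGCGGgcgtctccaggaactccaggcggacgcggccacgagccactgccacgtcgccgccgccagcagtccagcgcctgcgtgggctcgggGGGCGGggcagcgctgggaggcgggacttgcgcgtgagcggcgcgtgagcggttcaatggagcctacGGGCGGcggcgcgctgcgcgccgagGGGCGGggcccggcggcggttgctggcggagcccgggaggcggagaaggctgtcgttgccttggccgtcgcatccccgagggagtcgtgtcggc
All 6 genes have such a window. Counted on both strands in the nearest window, the GC box occurred 7 times for GNPNAT1, 4 for GFPT1, 3 for UAP1, 2 for PGM3, 1 for OGT and 0 for NAGK. The nearest window of NAGK lay 3952 bases from the start of its gene. PGM3, UAP1 and NAGK have further windows, and the second of NAGK held 2 GC boxes. With every window counted, 6 of the 6 genes held a GC box, so these differences depend on the window taken. Of 35116 RefSeq windows of this length, 44.95% held at least 1 GC box and 1.5% held as many as GNPNAT1 or more. The tail of the ER stress element, CCACG, occurred 3 times in the GFPT1 window, 2 times in that of OGT and 1 time in those of GNPNAT1 and NAGK, with 38.1% of all windows holding it. It too was held by 6 of the 6 genes with every window counted. The E-box CACGTG was in none of the 6 windows and in 7.26% of all, the CCAAT box was in those of PGM3, UAP1 and NAGK (34.6% of all), and the NRF1 motif was in that of NAGK (5.78% of all). The ETS motif CCGGAAG was in that of NAGK (10.3% of all) and the cAMP response element core TGACGT in that of UAP1 (7.98% of all). A match describes the letters of the window and not a bound factor.

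GNPNAT1 (ENSG00000100522, chr14:52775194-52791668, minus strand, GRCh38), the acetyltransferase of the pathway, showed the widest change of the 6. Its level, in reads per 1000000 counted reads scaled by TMM (CPM), was 141, 146 and 149 in the control libraries, 89.2, 86.9 and 86.5 with LIMp27 siRNA-1, and 32.0, 28.6 and 29.1 with LIMp27 siRNA-2. The 3 groups did not overlap at any point, and the libraries of each lay within a few CPM of each other. The log2 fold change against control was -0.73 ± 0.05 (SE) with LIMp27 siRNA-1 but -2.27 ± 0.07 with LIMp27 siRNA-2, and LIMp27 siRNA-2 stood at -1.53 ± 0.07 against LIMp27 siRNA-1. With LIMp27 siRNA-2 only 38 of 14204 tested genes had a lower log2 fold change, compared with 692 of 14347 with LIMp27 siRNA-1. An antisense gene, AL139317.3, overlaps GNPNAT1 and had 5 to 41 reads per library against 426 to 2654 for GNPNAT1. Whether the authors' counting used strand is not given in the sources used here.

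**Figure D1:**
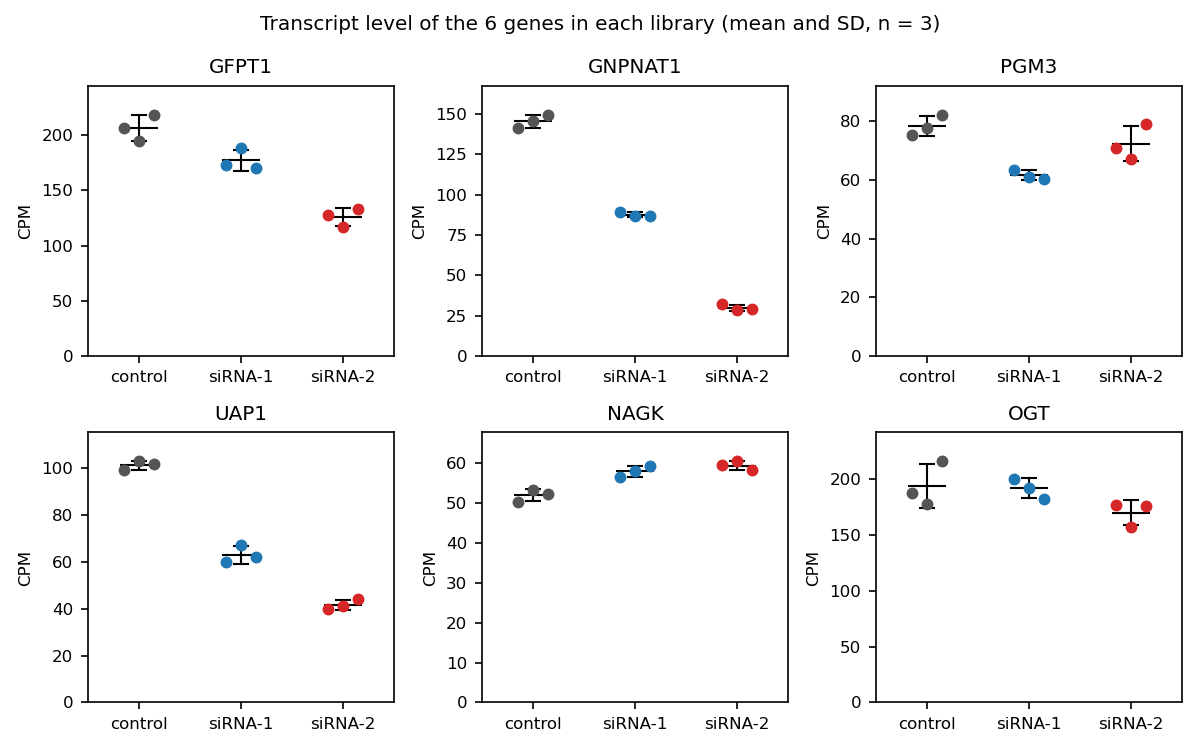
Level (CPM, TMM-scaled, axes from 0) of the 6 genes in each of 9 libraries, 3 each of control siRNA (grey), LIMp27 siRNA-1 (blue) and LIMp27 siRNA-2 (red), with group mean and SD as black bars. GNPNAT1 and UAP1 stepped down from control to LIMp27 siRNA-1 to LIMp27 siRNA-2 with no overlap, from a mean of 145 to 29.9 CPM for GNPNAT1 and from 101 to 41.6 CPM for UAP1, whereas NAGK sat higher than control with both.

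UAP1 (ENSG00000117143, chr1:162561506-162599842, plus strand), the pyrophosphorylase that completes UDP-GlcNAc, came next. Its CPM was 99.0, 103 and 102 in the control libraries, 60.0, 67.3 and 61.9 with LIMp27 siRNA-1, and 39.7, 41.0 and 44.1 with LIMp27 siRNA-2. All 3 groups were again apart. In log2 terms UAP1 stood at -0.68 ± 0.05 with LIMp27 siRNA-1 against control and at -1.28 ± 0.06 with LIMp27 siRNA-2, and -0.59 ± 0.07 between them. GNPNAT1 and UAP1 were thus lower by like amounts with LIMp27 siRNA-1 and by different amounts with LIMp27 siRNA-2, which the reads of a single library show without any scaling. For each UAP1 read there were 1.44 ± 0.03 GNPNAT1 reads (SD, n = 3) with control siRNA, 1.39 ± 0.10 with LIMp27 siRNA-1 but 0.72 ± 0.08 with LIMp27 siRNA-2. The sense intronic gene AL596325.2 within UAP1 had 1 to 5 reads per library.

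GFPT1 (ENSG00000198380, chr2:69319769-69387254, minus strand), the amidotransferase that commits fructose-6-phosphate to the pathway, was lower mainly with LIMp27 siRNA-2. The control libraries were at 206, 194 and 218 CPM, the LIMp27 siRNA-1 libraries at 173, 188 and 171 CPM, and the LIMp27 siRNA-2 libraries at 127, 117 and 133 CPM. The highest LIMp27 siRNA-1 library lay just under the lowest control library, while the LIMp27 siRNA-2 libraries stood clear of both. Fold changes in log2 were -0.22 ± 0.05 with LIMp27 siRNA-1, -0.70 ± 0.06 with LIMp27 siRNA-2 and -0.48 ± 0.06 between them. GFPT1 has a long transcript low in GC (8703 bases, 38.3% GC), and the median log2 fold change of the tested genes of like GC content and length was -0.19 under LIMp27 siRNA-1 and -0.30 under LIMp27 siRNA-2. Less that median, GFPT1 stood at -0.03 with LIMp27 siRNA-1 and at -0.40 with LIMp27 siRNA-2, and scaled by library totals alone it stood at -0.12 with LIMp27 siRNA-1. Its paralogue GFPT2 had 1 to 7 reads per library.

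PGM3 (ENSG00000013375, chr6:83161150-83193936, minus strand), the phosphomutase between GNPNAT1 and UAP1, did not follow its neighbours. Its CPM was 75.3, 77.6 and 82.2 with control siRNA, 63.5, 60.9 and 60.3 with LIMp27 siRNA-1, and 70.9, 67.3 and 79.1 with LIMp27 siRNA-2. The LIMp27 siRNA-1 libraries were the lowest of the 9, and the LIMp27 siRNA-2 libraries overlapped the control libraries. On the log2 scale PGM3 changed by -0.34 ± 0.05 with LIMp27 siRNA-1 and stood at -0.11 ± 0.06 with LIMp27 siRNA-2, and PGM3 was the 1 gene of the 6 that stood higher with LIMp27 siRNA-2 than LIMp27 siRNA-1 beyond the spread (0.25 ± 0.06). Less the median of genes of like GC content and length the first 2 values were -0.21 and 0.04. The sign with LIMp27 siRNA-2 was thus not stable, and without LIMp27 siRNA-2 replicate 3 the fold change was -0.18 ± 0.06. The opposite-strand genes RWDD2A (73 to 121 reads) and DOP1A (160 to 337 reads) overlap PGM3 (1058 to 1460 reads), and reads shared with them cannot be told apart if strand was not used.

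NAGK (ENSG00000124357, chr2:71064344-71079805, plus strand), the salvage kinase, was slightly higher with both LIMp27 siRNAs. Its CPM was 50.3, 53.4 and 52.3 with control siRNA, 56.5, 58.1 and 59.3 with LIMp27 siRNA-1, and 59.6, 60.5 and 58.3 with LIMp27 siRNA-2. Each LIMp27 siRNA library lay above every control library, and the 2 LIMp27 siRNA groups overlapped. The log2 fold change was 0.16 ± 0.06 and 0.20 ± 0.06, with 0.05 ± 0.06 between the siRNAs, and 0.26 with LIMp27 siRNA-1 scaled by library totals alone. Without control siRNA replicate 1 the values against control were 0.14 ± 0.06 and 0.17 ± 0.08. The first was also 0.14 ± 0.06 without LIMp27 siRNA-1 replicate 3, and 0.16 ± 0.07 with DESeq2. The ratio of GNPNAT1, on the route from glucose, to NAGK, on the salvage route, was 2.80, 2.73 and 2.86 GNPNAT1 reads per NAGK read with control siRNA, 1.58, 1.5 and 1.46 with LIMp27 siRNA-1, and 0.54, 0.47 and 0.50 with LIMp27 siRNA-2. GNPNAT1 reads therefore outnumbered NAGK reads in each control and LIMp27 siRNA-1 library and were outnumbered in each LIMp27 siRNA-2 library.

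OGT (ENSG00000147162, chrX:71533083-71575897, plus strand), the O-GlcNAc transferase, stood closest to control of the 6 genes with LIMp27 siRNA-1 but not with LIMp27 siRNA-2, where PGM3 did. Its CPM was 188, 178 and 216 with control siRNA, 200, 192 and 182 with LIMp27 siRNA-1, and 177, 157 and 176 with LIMp27 siRNA-2. The control libraries spread the most, the LIMp27 siRNA-1 libraries fell within their range, and the LIMp27 siRNA-2 libraries lay just below it. Log2 fold changes were -0.01 ± 0.05 with LIMp27 siRNA-1, -0.18 ± 0.06 with LIMp27 siRNA-2 and -0.16 ± 0.06 between them. Less the median of like genes the values against control were 0.11 and -0.07. The LIMp27 siRNA-2 value ran from -0.25 to -0.10 as single libraries were left out. It was -0.10 ± 0.06 without control siRNA replicate 3 and -0.14 ± 0.07 without LIMp27 siRNA-2 replicate 2. Scaled by library totals alone it was -0.09 ± 0.06. The value between the siRNAs likewise ran from -0.195 to -0.107. It was -0.13 ± 0.06 without LIMp27 siRNA-1 replicate 1, -0.16 ± 0.07 without LIMp27 siRNA-1 replicate 2 and -0.11 ± 0.06 without LIMp27 siRNA-2 replicate 2.

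In the fit across all genes, 4 of the 6 genes were lower and 1 was higher in each comparison, though not the same genes. GFPT1, GNPNAT1 and UAP1 were lower throughout, joined by PGM3 with LIMp27 siRNA-1 and by OGT with LIMp27 siRNA-2 and between the siRNAs. The higher gene was NAGK against control and PGM3 between the siRNAs. The background was 28.3% of genes lower and 26.5% higher under LIMp27 siRNA-1, 29.0% and 27.7% under LIMp27 siRNA-2, and 22.4% and 23.1% for LIMp27 siRNA-2 against LIMp27 siRNA-1. The same numbers, 4 and 1 of 6, had CPM values that did not overlap between the groups, where the background was 30.1% lower and 28.5% higher under LIMp27 siRNA-1, 30.4% and 29.5% under LIMp27 siRNA-2, and 26.7% and 24.9% between the siRNAs. Since the 6 genes were chosen with these contrasts known, nothing is read from the counts. Their median log2 fold change was -0.28 under LIMp27 siRNA-1 and -0.44 under LIMp27 siRNA-2, beside 0.001 and 0.012 over all tested genes. In bulk RNA, fewer cells with a transcript and less of it in each cell cannot be told apart.

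Set against each other per length, in the authors' FPKM (reads per kilobase of mean annotated transcript length and 1000000 counted reads), the genes changed places. With control siRNA the order was OGT (99.6 ± 9.74 FPKM, SD, n = 3), GNPNAT1 (84.6 ± 2.46), UAP1 (63.0 ± 1.41), PGM3 (47.6 ± 2.06), GFPT1 (42.6 ± 2.29) and NAGK (42.1 ± 1.41), and only GFPT1 and NAGK overlapped. With LIMp27 siRNA-1, GNPNAT1 (54.5 ± 0.72 FPKM) was still the second and NAGK (50.3 ± 1.39) the third, while UAP1 (42.0 ± 2.63), PGM3 (40.0 ± 0.96) and GFPT1 (39.2 ± 2.13) overlapped. With LIMp27 siRNA-2, OGT (93.4 ± 5.75 FPKM) led, NAGK (51.4 ± 1.11) and PGM3 (47.0 ± 3.86) overlapped, as did GFPT1 (27.8 ± 1.76) and UAP1 (27.7 ± 1.54), and GNPNAT1 (18.6 ± 1.08) was last. GNPNAT1 moved from above 86.4% of 11977 protein-coding genes by mean FPKM with control siRNA to above 51.4% with LIMp27 siRNA-2. The order rests on the length used. Per kilobase of the longest annotated transcript, UAP1 (42.6 ± 0.80 CPM per kilobase) stood ahead of GNPNAT1 (37.7 ± 1.09) and OGT (26.7 ± 2.71) with control siRNA, and GNPNAT1 (7.74 ± 0.49) was again last with LIMp27 siRNA-2.

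**Figure D2:**
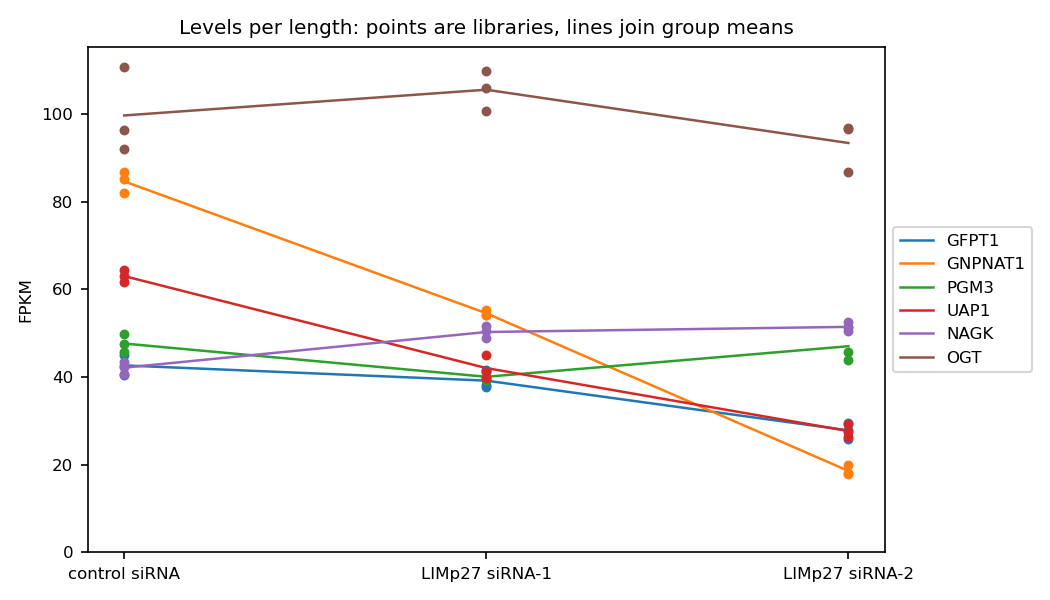
FPKM (y axis, from 0) of the 6 genes in the 3 libraries of each siRNA group (points), with lines joining group means. The GNPNAT1 line falls from second place at a mean of 84.6 FPKM with control siRNA to last at 18.6 FPKM with LIMp27 siRNA-2, crossing those of UAP1, PGM3, GFPT1 and NAGK.

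The genes whose levels followed GNPNAT1 most closely over the 9 libraries, among 9831 protein-coding genes with a mean of at least 100 reads, were TMEM123 (Pearson r = 0.9989 in log2 CPM), NSUN2, an RNA cytosine methyltransferase (0.9985), EIF1AX, a translation initiation factor (0.9982), NIP7, of ribosome assembly (0.998), and ANXA2, a membrane-binding annexin (0.9974). These points are 3 groups of 3 libraries, so a high r says that the steps between groups have the same proportions. TMEM123 had mean levels of 964, 572 and 177 CPM with control siRNA, LIMp27 siRNA-1 and LIMp27 siRNA-2, and log2 fold changes against control of -0.75 and -2.44, close to those of GNPNAT1. ANXA2, at 3493, 3071 and 2331 CPM, kept the proportions on a smaller scale (-0.18 and -0.57). Such a pattern was common, with 75 genes above an r of 0.99 and 627 above 0.95. Of the other 5 pathway genes, GFPT1 had an r of 0.98 with GNPNAT1, UAP1 0.96, OGT 0.69, PGM3 0.12 and NAGK -0.80. The choice depended on the measure, since 3 of the 5 stayed among the nearest 5 with log2(FPKM + 1) and 0 with rank correlation.

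Other enzymes that handle GlcNAc phosphates and UDP-GlcNAc were tested in the same fits, 9 of 11 listed genes having enough reads (GFPT2 and RENBP, with 0 to 9 reads per library, did not). With LIMp27 siRNA-1, 2 were higher, 4 lower and 3 did not pass the threshold (median log2 fold change -0.16, with 26.5% of all tested genes higher and 28.3% lower). With LIMp27 siRNA-2, 3 were higher and 6 lower (median -0.35, with 27.7% and 29.0%). SLC35A3, the Golgi carrier of UDP-GlcNAc, fell with both, from 28.0, 29.8 and 34.1 CPM to 24.0, 23.3 and 20.5 CPM (log2 fold change -0.44 ± 0.08, adjusted p = 3.94e-05, edgeR) and to 17.1, 17.1 and 20.5 CPM (-0.75 ± 0.09, adjusted p = 8.54e-08). GNPDA1, which turns glucosamine-6-phosphate back into fructose-6-phosphate and so runs against GFPT1, rose with LIMp27 siRNA-2 from 66.6, 67.3 and 63.6 CPM to 109, 107 and 112 CPM (0.74 ± 0.06, adjusted p = 1.04e-11) and by less with LIMp27 siRNA-1 (0.18 ± 0.05, adjusted p = 0.00332). Its libraries with LIMp27 siRNA-2 were all above those with LIMp27 siRNA-1, a difference that passed the test directly (0.57 ± 0.06, adjusted p = 7.39e-10). GNPDA2, its paralogue for the same reaction, went the other way with LIMp27 siRNA-2. It was low, and fell from a mean of 7.36 to 4.62 CPM (-0.65 ± 0.17, adjusted p = 0.00153, edgeR). With LIMp27 siRNA-1 it stood at -0.08 ± 0.13 (adjusted p = 0.618). The difference between the siRNAs passed (-0.56 ± 0.16, adjusted p = 0.00593), but not without LIMp27 siRNA-2 replicate 2 (0.0665).

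OGA, the enzyme that removes what OGT adds, fell with LIMp27 siRNA-2 (log2 fold change -0.35 ± 0.06, adjusted p = 4.41e-06, edgeR), and its change under LIMp27 siRNA-1 also passed (-0.19 ± 0.04, adjusted p = 0.000636, and 0.0741 scaled by library totals alone). EOGT, which places GlcNAc on extracellular EGF repeats, was low throughout and fell with LIMp27 siRNA-2 from 12.3, 8.87 and 10.6 CPM to 4.65, 3.82 and 5.66 CPM (-1.17 ± 0.16, adjusted p = 2.33e-07). With LIMp27 siRNA-1 it stood at 9.81, 9.29 and 11.3 CPM, within the spread of control (-0.06 ± 0.12, adjusted p = 0.725), and the difference between the siRNAs passed (-1.10 ± 0.14, adjusted p = 2.03e-07). GALK2, a GalNAc kinase, rose with both (0.31 ± 0.07, adjusted p = 0.000433, and 0.41 ± 0.08, adjusted p = 6.67e-05). AMDHD2, which deacetylates GlcNAc-6-phosphate and so runs against GNPNAT1, fell with LIMp27 siRNA-1 (-0.29 ± 0.08, adjusted p = 0.00265) and rose with LIMp27 siRNA-2 (0.27 ± 0.08, adjusted p = 0.00582, and 0.0561 without LIMp27 siRNA-2 replicate 2). UAP1L1, the paralogue of UAP1, stood at -0.16 ± 0.07 (adjusted p = 0.0626) and fell with LIMp27 siRNA-2 (-0.47 ± 0.08, adjusted p = 1.39e-05). Between the siRNAs, 2 of the 9 were higher and 5 lower with LIMp27 siRNA-2 (23.1% and 22.4% of all tested genes), and 3 in place of 5 without LIMp27 siRNA-2 replicate 1 or without replicate 2.

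Of 15 genes that supply the pathway with glucose, glutamine, acetyl-CoA and UTP, 8 were lower and 1 was higher with LIMp27 siRNA-1 (median log2 fold change -0.17, with 28.3% of all tested genes lower and 26.5% higher), and 11 were lower and 1 was higher with LIMp27 siRNA-2 (median -0.41, with 29.0% and 27.7%). SLC2A1, the glucose transporter GLUT1, fell from 862, 929 and 786 CPM to 465, 481 and 479 CPM with LIMp27 siRNA-1 (log2 fold change -0.85 ± 0.05, adjusted p = 7.82e-15, edgeR) and to 358, 398 and 412 CPM with LIMp27 siRNA-2 (-1.13 ± 0.06, adjusted p = 8.37e-16). HK2, a hexokinase, fell with both (-1.05 ± 0.05, adjusted p = 2.68e-16, and -0.68 ± 0.06, adjusted p = 3.56e-10). ACLY, which makes cytosolic acetyl-CoA, also fell with both (-0.34 ± 0.04, adjusted p = 9.97e-08, and -0.49 ± 0.05, adjusted p = 1.56e-09). GLUL, glutamine synthetase, fell with LIMp27 siRNA-2 from 172, 164 and 177 CPM to 96.6, 95.4 and 86.9 CPM (-0.87 ± 0.06, adjusted p = 2.55e-13). With LIMp27 siRNA-1 it passed narrowly (-0.12 ± 0.05, adjusted p = 0.0213), and missed the threshold without control siRNA replicate 1 or 3 or LIMp27 siRNA-1 replicate 1 (0.079, 0.0721 and 0.0743) and scaled by library totals alone (0.6). CMPK1, a kinase of pyrimidine nucleotides, fell with LIMp27 siRNA-2 (-0.79 ± 0.06, adjusted p = 1e-12) and stood at 0.01 ± 0.04 with LIMp27 siRNA-1 (adjusted p = 0.927). Between the siRNAs 4 were higher and 8 lower (23.1% and 22.4% of all tested genes), with GLUL (-0.73 ± 0.06, adjusted p = 3.18e-12), CMPK1 (-0.79 ± 0.06, adjusted p = 5.44e-13) and HK1 (-0.53 ± 0.06, adjusted p = 3.35e-08) lower with LIMp27 siRNA-2. The count of 1 higher went to 0 with LIMp27 siRNA-1 without control siRNA replicate 1, control siRNA replicate 2 or LIMp27 siRNA-1 replicate 3, and with LIMp27 siRNA-2 to 0 without control siRNA replicate 2 or LIMp27 siRNA-2 replicate 1 and to 2 without LIMp27 siRNA-2 replicate 3.

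Of the 7 genes of sialic acid synthesis, which starts from UDP-GlcNAc, 0 were higher with either siRNA by edgeR (also 0 at an unadjusted p under 0.05 and 0 with DESeq2), 2 were lower with LIMp27 siRNA-1 (median log2 fold change -0.16, with 28.3% of all tested genes lower and 26.5% higher) and 4 with LIMp27 siRNA-2 (median -0.17, with 29.0% and 27.7%). GNE, which takes UDP-GlcNAc into this branch, fell with LIMp27 siRNA-1 from 36.6, 39.4 and 41.7 CPM to 26.5, 22.4 and 25.3 CPM (-0.66 ± 0.07, adjusted p = 9.44e-09, edgeR), and NANS, sialic acid synthase, by -0.21 ± 0.06 (adjusted p = 0.00167, and 0.0674 scaled by library totals alone). NANP, the phosphatase of the branch (-1.04 ± 0.14, adjusted p = 2.39e-07), and SLC17A5, the lysosomal sialic acid carrier (-1.16 ± 0.12, adjusted p = 1.82e-09), fell with LIMp27 siRNA-2, and both were lower with it than with LIMp27 siRNA-1 (-0.95 ± 0.13, adjusted p = 4.09e-07, and -1.0 ± 0.12, adjusted p = 2.25e-08). GNE and NANS were higher with it than with LIMp27 siRNA-1 (0.47 ± 0.08, adjusted p = 1.23e-05, and 0.26 ± 0.06, adjusted p = 0.000801), so that 2 were higher and 3 lower between the siRNAs (23.1% and 22.4% of all tested genes). With LIMp27 siRNA-2, GNE (-0.20 ± 0.08, adjusted p = 0.028) and CMAS (-0.17 ± 0.07, adjusted p = 0.03) passed narrowly. GNE missed the threshold without control siRNA replicate 2 or 3 or LIMp27 siRNA-2 replicate 1 or 3 (adjusted p of 0.0533, 0.117, 0.127 and 0.0505), and CMAS without control siRNA replicate 1 or LIMp27 siRNA-2 replicate 1 (0.128 and 0.166). Without LIMp27 siRNA-2 replicate 1 the count of 4 was 2.

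N-glycans are built with UDP-GlcNAc and with other sugar donors, and of their assembly and branching enzymes, 18 of 20 listed genes were tested, with 6 higher and 6 lower with LIMp27 siRNA-1 (median log2 fold change 0.04, with 26.5% of all tested genes higher and 28.3% lower) and 6 higher and 3 lower with LIMp27 siRNA-2 (median 0.06, with 27.7% and 29.0%). ALG13 and ALG14 form the enzyme that adds the second GlcNAc of the lipid-linked oligosaccharide. ALG14 fell with LIMp27 siRNA-2 from 15.3, 12.8 and 13.7 CPM to 4.85, 4.90 and 5.59 CPM (-1.45 ± 0.13, adjusted p = 1.26e-10, edgeR) and was lower with LIMp27 siRNA-1 too (-0.41 ± 0.11, adjusted p = 0.00192), and ALG13 fell with both siRNAs (-0.36 ± 0.05, adjusted p = 1.74e-06, and -0.41 ± 0.07, adjusted p = 5.57e-06). DPAGT1, which adds the first, rose with both (0.24 ± 0.07, adjusted p = 0.00374, and 0.46 ± 0.07, adjusted p = 2.43e-06). The branching enzyme MGAT4B fell with LIMp27 siRNA-1 (-0.18 ± 0.05, adjusted p = 0.00152, and 0.127 scaled by library totals alone) and rose with LIMp27 siRNA-2 (0.37 ± 0.06, adjusted p = 3.81e-06). With LIMp27 siRNA-1 the branching enzyme MGAT2 (-0.39 ± 0.06, adjusted p = 4.69e-06) and the mannosyltransferase ALG2 (-0.28 ± 0.05, adjusted p = 6.93e-05) fell, while with LIMp27 siRNA-2 they stood at -0.14 ± 0.07 (adjusted p = 0.0978) and 0.04 ± 0.06 (adjusted p = 0.652). The glucosyltransferase ALG8 rose with both (0.32 ± 0.05, adjusted p = 6.86e-06, and 0.18 ± 0.06, adjusted p = 0.0147), the second call being lost without control siRNA replicate 2 or LIMp27 siRNA-2 replicate 1 (0.121 and 0.0893). Between the siRNAs 6 were higher and 3 lower with LIMp27 siRNA-2 (23.1% and 22.4% of all tested genes), with MGAT4B, ALG2 and ALG1 among the first (0.56 ± 0.05, adjusted p = 5.46e-10, 0.33 ± 0.06, adjusted p = 7.37e-05, and 0.29 ± 0.07, adjusted p = 0.00116) and ALG14 among the others (-1.02 ± 0.14, adjusted p = 2.21e-07).

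Among the other glycan users of UDP-GlcNAc, 25 of 28 listed genes were tested, with 11 higher and 10 lower with LIMp27 siRNA-1 (median log2 fold change 0.06, with 26.5% of all tested genes higher and 28.3% lower) and 11 higher and 4 lower with LIMp27 siRNA-2 (median 0.20, with 27.7% and 29.0%). GCNT3, a mucin-type branching enzyme of the gut, fell from 199, 191 and 207 CPM to 98.4, 102 and 105 CPM (-0.96 ± 0.05, adjusted p = 2.56e-16, edgeR) and to 74.8, 76.1 and 81.4 CPM (-1.35 ± 0.06, adjusted p = 6.86e-18). B3GNT5, which starts the lacto-series glycolipids, fell with both (-0.72 ± 0.06, adjusted p = 1.31e-11, and -0.79 ± 0.07, adjusted p = 2.09e-11). POMGNT1, of O-mannose glycans, rose with both (0.77 ± 0.06, adjusted p = 2.67e-12, and 0.75 ± 0.07, adjusted p = 1.32e-10). EXTL3, of heparan sulfate, rose with both (0.56 ± 0.06, adjusted p = 6.03e-09, and 0.32 ± 0.07, adjusted p = 0.000303), as did B3GNT3 (0.51 ± 0.07, adjusted p = 1.81e-07, and 0.81 ± 0.08, adjusted p = 4e-10). Between the siRNAs 10 were higher and 4 lower with LIMp27 siRNA-2 (23.1% and 22.4% of all tested genes), with B3GNT2 higher (0.39 ± 0.06, adjusted p = 7.74e-06), GCNT3 lower (-0.38 ± 0.06, adjusted p = 2.08e-06) and GCNT2 lower at a mean of 2.66 against 6.11 CPM (-1.18 ± 0.17, adjusted p = 1.26e-06).

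Among the enzymes of other nucleotide sugars, 2 of 16 were higher and 8 lower with LIMp27 siRNA-1 (median log2 fold change -0.18, with 26.5% of all tested genes higher and 28.3% lower). With LIMp27 siRNA-2, 5 were higher and 5 lower (median -0.001, with 27.7% and 29.0%), and 9 were higher and 1 lower between the siRNAs (median 0.23, with 23.1% and 22.4%). UGDH, which makes UDP-glucuronate, fell from 367, 355 and 361 CPM to 167, 180 and 183 CPM with LIMp27 siRNA-1 (-1.03 ± 0.04, adjusted p = 1.63e-17, edgeR) and by far less with LIMp27 siRNA-2 (-0.23 ± 0.06, adjusted p = 0.00113), and the difference passed directly (0.81 ± 0.06, adjusted p = 1.28e-12). UGP2, which makes UDP-glucose, fell with both (-0.49 ± 0.05, adjusted p = 1.66e-09, and -0.18 ± 0.06, adjusted p = 0.0081, or 0.159 scaled by library totals alone), and PGM2, a phosphopentomutase, fell with both (-0.80 ± 0.06, adjusted p = 1.39e-12, and -0.42 ± 0.06, adjusted p = 2.31e-06). GMDS, the first enzyme from GDP-mannose to GDP-fucose, rose with both (0.28 ± 0.06, adjusted p = 0.000191, and 0.79 ± 0.07, adjusted p = 3.3e-11), and GMPPB, which makes GDP-mannose, fell with both (-0.26 ± 0.06, adjusted p = 0.000561, and -0.71 ± 0.07, adjusted p = 1.76e-09). Compared directly, GMDS and MPI were higher with LIMp27 siRNA-2 (0.53 ± 0.06, adjusted p = 1.19e-08, and 0.45 ± 0.07, adjusted p = 2.54e-06). Without LIMp27 siRNA-2 replicate 2 the count of 5 higher was 3.

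Of 10 genes listed under lysosomal GlcNAc release, which feeds NAGK with free sugar, 5 were higher and 1 lower with LIMp27 siRNA-1 (median log2 fold change 0.12, with 26.5% of all tested genes higher and 28.3% lower), or 3 and 3 without LIMp27 siRNA-1 replicate 3. With LIMp27 siRNA-2, 7 were higher and 1 lower (median 0.30, with 27.7% and 29.0%). These 7 included HEXDC, ENGASE, NAGPA and HGSNAT, which are not lysosomal or do not release GlcNAc. NAGLU, an N-acetylglucosaminidase, rose from 16.5, 14.8 and 13.5 CPM to 20.9, 17.0 and 19.8 CPM (0.37 ± 0.10, adjusted p = 0.00179, edgeR) and to 23.9, 26.6 and 21.1 CPM (0.69 ± 0.10, adjusted p = 1.65e-06). HEXDC, a hexosaminidase, rose with both (0.40 ± 0.09, adjusted p = 0.000488, and 0.55 ± 0.11, adjusted p = 0.000133), as did HGSNAT, of heparan sulfate breakdown (0.54 ± 0.13, adjusted p = 0.000664, and 0.41 ± 0.14, adjusted p = 0.0108, the second call being lost without LIMp27 siRNA-2 replicate 1, at 0.055). CTBS, of the chitobiose core, fell with LIMp27 siRNA-2 (-0.69 ± 0.20, adjusted p = 0.00388) and stood at -0.37 ± 0.17 with LIMp27 siRNA-1 (adjusted p = 0.0724). ENGASE rose with both (0.21 ± 0.07, adjusted p = 0.0123, and 0.34 ± 0.09, adjusted p = 0.00224, and 0.0586 without LIMp27 siRNA-2 replicate 1). Between the siRNAs 4 were higher and 0 lower by edgeR, NAGPA (0.51 ± 0.09, adjusted p = 2.76e-05) and NAGLU (0.33 ± 0.09, adjusted p = 0.00483, and 0.0545 without LIMp27 siRNA-1 replicate 2) among the first. At an unadjusted p under 0.05, 1 was lower (HEXA), and 0 with DESeq2. Over all tested genes 23.1% were higher and 22.4% lower between the siRNAs. The count of 1 lower with LIMp27 siRNA-1 was 2 without control siRNA replicate 3, that of 7 was 4 without LIMp27 siRNA-2 replicate 1, and that of 4 was 2 without LIMp27 siRNA-1 replicate 2.

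The unfolded protein response has a known tie to the pathway, since its transcription factor XBP1 can raise the transcripts of hexosamine enzymes in other cells. Of 20 such genes, 12 fell and 3 rose with LIMp27 siRNA-1 (median log2 fold change -0.27, with 28.3% of all tested genes lower and 26.5% higher). With LIMp27 siRNA-2, 6 fell and 10 rose (median 0.10, with 29.0% and 27.7%), and 10 were higher and 1 lower between the siRNAs (median 0.27, with 23.1% and 22.4%). XBP1 itself was at 322, 322 and 321 CPM with control siRNA, 220, 226 and 239 CPM with LIMp27 siRNA-1 and 338, 341 and 362 CPM with LIMp27 siRNA-2 (-0.49 ± 0.04, adjusted p = 1.05e-10, and 0.12 ± 0.05, adjusted p = 0.0468, edgeR). The second call was lost without any 1 of the 6 libraries (adjusted p of 0.131, 0.126 and 0.115 without control siRNA replicate 1, 2 or 3, and 0.0537, 0.0652 and 0.147 without LIMp27 siRNA-2 replicate 1, 2 or 3), whereas the direct difference passed (0.62 ± 0.05, adjusted p = 1.45e-11). XBP1 had its lowest level with LIMp27 siRNA-1 and GNPNAT1, UAP1 and GFPT1 had theirs with LIMp27 siRNA-2, and its part in their levels was not tested. ATF4, a transcription factor tied to amino acid stress, fell with both (-0.31 ± 0.04, adjusted p = 3.49e-07, and -0.21 ± 0.05, adjusted p = 0.000603), and CHAC1 did as well (-1.06 ± 0.08, adjusted p = 4.57e-12, and -0.84 ± 0.09, adjusted p = 7.52e-09). SESN2, a stress gene of the same list, fell with LIMp27 siRNA-1 (-0.26 ± 0.07, adjusted p = 0.00214) but rose with LIMp27 siRNA-2 (0.61 ± 0.07, adjusted p = 1.93e-08). EDEM1, of the disposal of misfolded glycoproteins, fell with both (-0.44 ± 0.07, adjusted p = 4.63e-06, and -1.13 ± 0.08, adjusted p = 5.98e-13). TRIB3, a stress-induced pseudokinase, rose with LIMp27 siRNA-2 (0.71 ± 0.06, adjusted p = 8.97e-12) and by less with LIMp27 siRNA-1 (0.14 ± 0.05, adjusted p = 0.0263), a call lost without control siRNA replicate 1 or 2 or LIMp27 siRNA-1 replicate 3 (0.0626, 0.16 and 0.297). The count of 3 higher was 1 without control siRNA replicate 1 and 1 without control siRNA replicate 2.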

How the data were processed

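RNA-seq was made from WiDr cells 24 h after transfection with 100 nM siRNA, in 9 libraries (strand-specific per the labels). For each LIMp27 siRNA with its control the authors deposited 1 table, listing 23981 and 23919 genes, with raw read counts per gene and library, normalized counts, FPKM, and log2 fold changes and p-values of their own comparison. The fold changes, p-values and normalized counts were not used. The submitters' notes name CASAVA and the build GRCh38, and the aligner and counting program are not given in the sources used here. The deposited FPKM values matched the authors' counts per kilobase of mean transcript length (GENCODE 29) and 1000000 reads counted to genes to within 1% for 99.96% of 184425 values above 0. Genes with fewer than 2 reads over a table's 6 libraries are not listed.

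Per library, 14361629 to 21524623 reads were counted to genes, and depth limits the precision of genes with few reads. Each comparison was fitted on its own 6 libraries with edgeR 4.0.16 in R 4.3.3 (TMM scaling, filterByExpr with a minimum count of 10, quasi-likelihood test, Benjamini-Hochberg adjustment over the whole table of tested genes, threshold 0.05). The standard error of a fold change was its size in log2 over the root of F. CPM values were scaled by TMM over all 9 libraries. A gene was said not to overlap where the lowest CPM of a group lay above the highest of the other. Promoter windows came from RefSeq. All 9 libraries entered the values reported, and no column belonged to another sample.

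The members and the 8 lists of other pathway genes were chosen with earlier results of these data known. The 6 members, up to 4 called genes per list and comparison by lowest adjusted p, the 5 genes most like GNPNAT1, and genes that overlap a member are named by rule, and further genes of the list of GlcNAc enzymes were named after their values were seen. Of the list genes, 1 (PIGY) was not listed in the tables, and HEXD was matched by its older symbol HEXDC. Some genes counted in the lists are not reported here by name. On counts simulated from the real means with 200 changed genes, 98%, 93% and 99% of genes changed by a log2 fold change of 1 were called for LIMp27 siRNA-1, LIMp27 siRNA-2 and the direct comparison, and 79%, 74% and 79% at 0.5. The simulation used a single fixed dispersion not estimated from these data, and changed only genes above a minimum mean count. Its percentages are therefore not the power of the real comparisons. Alternatives were RLE size factors, library totals alone, no filter, a replicate block, 1 fit over all 9 libraries, DESeq2 1.42.0, leaving out each library, rank and FPKM likeness, and motifs on 1 strand. Centring on genes of like GC content and length (10 by 10 bins), and levels per kilobase of the longest transcript, were added after seeing the data.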

Additional observations from a re-analysis of the deposited data

Results flagged for a closer look

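Of 117 reported list genes tested in all 3 comparisons, 61 passed the threshold with both LIMp27 siRNAs, and 10 of these moved in opposite directions, each with a direct difference between the siRNAs that also passed (edgeR, adjusted over all tested genes). Over all genes, 5468 passed with both, of the 14347 and 14204 genes tested against control. How many of these 5468 moved in opposite directions was not counted, so the 10 list genes have no such rate beside them. All 10 were lower with LIMp27 siRNA-1 and higher with LIMp27 siRNA-2, and the controls are shared. In the unfolded protein response they were DNAJB9, an ER co-chaperone (log2 fold change -0.30 and 0.78, direct difference 1.092), HYOU1, an ER chaperone (-0.23 and 0.51, difference 0.75), SESN2 (-0.26 and 0.61, difference 0.87), HERPUD1 (-0.39 and 0.24, difference 0.64), HSPA5, the ER chaperone BiP (-0.28 and 0.23, difference 0.52) and XBP1 (-0.49 and 0.12, difference 0.62, the second call lost without any 1 of the libraries).

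Among glycan enzymes they were GCNT1, a mucin-type branching enzyme (-0.58 and 0.66, difference 1.25), the N-glycan branching enzyme MGAT4B (-0.18 and 0.37, difference 0.56, the first call lost when scaled by library totals alone, at an adjusted p of 0.127), UXS1, which makes UDP-xylose (-1.09 and 0.17, difference 1.27), and AMDHD2 (-0.29 and 0.27, difference 0.57). The LIMp27 siRNA-2 calls of UXS1 (adjusted p of 0.0802 and 0.117 without control siRNA replicate 1 or 3) and AMDHD2 (0.0561 without LIMp27 siRNA-2 replicate 2) rested on single libraries. Those of UXS1 (0.0839 with no filter and 0.0604 with DESeq2) and XBP1 (0.0503 with RLE size factors, 0.185 with no filter and 0.0626 with DESeq2) also missed the threshold under other settings, while all 10 direct differences passed in every alternative fit. None of GFPT1, GNPNAT1, PGM3, UAP1, NAGK and OGT moved in opposite directions past the threshold.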

How the results depend on the processing

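Of the member fold changes and counts of called genes, 361 alternative values moved by less than the spread between replicates or by less than 1.5 times, and 17 member values moved by more, none with a call reversed. Some calls of members were lost or gained. NAGK lost its call without control siRNA replicate 1 (both siRNAs), and with LIMp27 siRNA-1 under DESeq2 or without its replicate 3. OGT lost its LIMp27 siRNA-2 call under library totals alone, or without control siRNA replicate 3 or LIMp27 siRNA-2 replicate 2. Between the siRNAs OGT lost it without LIMp27 siRNA-1 replicate 1 or 2 or LIMp27 siRNA-2 replicate 2. PGM3 gained a LIMp27 siRNA-2 call without replicate 3 of that siRNA. Library totals alone, which raised the median of all genes by 0.09 against control with both siRNAs, gave with LIMp27 siRNA-1 log2 fold changes of -0.12 (GFPT1), -0.63 (GNPNAT1), -0.25 (PGM3), -0.58 (UAP1) and 0.26 (NAGK), and with LIMp27 siRNA-2 -2.18 (GNPNAT1), -1.19 (UAP1) and 0.29 (NAGK). Centring on genes of like GC content and length was added once the data had been seen and gave with LIMp27 siRNA-1 -0.029 (GFPT1), -0.58 (GNPNAT1), -0.21 (PGM3) and 0.11 (OGT), with LIMp27 siRNA-2 -0.40 (GFPT1), -2.125 (GNPNAT1), 0.043 (PGM3) and 0.16 (NAGK), and 0.014 for NAGK between the siRNAs. PGM3 with LIMp27 siRNA-2 and OGT with LIMp27 siRNA-1, at -0.11 and -0.01 in the fit reported, changed sign there. Leaving out each library moved GNPNAT1 from -0.74 to -0.71, from -2.33 to -2.24 and from -1.59 to -1.50 in the 3 comparisons. Replicate numbers were shared by the groups with correlations of paired deviations of -0.23 to 0.21, so they mark no pairs, and the replicate block gave 3687 higher and 3981 lower genes with LIMp27 siRNA-1 and 4026 and 4223 with LIMp27 siRNA-2, and GNPNAT1 at -0.73 and -2.27, with no call of the 6 genes changed.

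Small list counts changed with the setting. Library totals alone gave, with LIMp27 siRNA-1, 4 nucleotide sugar genes higher (2 in the fit reported), 2 GlcNAc enzymes lower (4) and 1 sialic acid gene lower (2), with LIMp27 siRNA-2, 2 substrate genes higher (1), 2 sialic acid genes lower (4) and 3 nucleotide sugar genes lower (5), and 5 N-glycan genes lower between the siRNAs (3), as did 1 fit over all libraries. DESeq2 gave 0 substrate genes higher with LIMp27 siRNA-1 (1, also 0 in the 1 fit), and 3 nucleotide sugar genes (5) and 4 genes of the lysosomal list (7) higher with LIMp27 siRNA-2. No filter gave 2 genes of the lysosomal list lower with LIMp27 siRNA-1 (1, also 2 in the 1 fit) and 0 substrate genes higher with LIMp27 siRNA-2 (1), and the 1 fit gave 1 gene of the lysosomal list lower between the siRNAs (0). The causes were not tested. On 1 strand 30.6% of promoters held a GC box. Genes with few reads set the limit of depth, such as CTBS at 3.06 CPM.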
